A study of Mus musculus with 4 samples.

Results

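The 10 genes described here are the cytosolic and mitochondrial heat shock genes Hspa1a, Hspa1b, Hspa8, Hsp90aa1, Hsp90ab1, Hsph1, Dnajb1, Hspd1, Hspe1 and Hspb1. They were taken by symbol from count tables that list 24421 genes, and all 10 were found. RNA sequencing had been done on J558 tumors, a mouse plasmacytoma (a tumor of antibody-producing plasma cells) grown under the skin of the flank in female BALB/c mice. The Vehicle group (n = 2) received 0.5% methylcellulose by mouth. The TAK-931 group (n = 2) received TAK-931, an inhibitor of the kinase CDC7 that starts DNA replication, by mouth at 60 mg/kg once a day, and all tumors were sampled on day 6. The libraries are called Vehicle-1, Vehicle-2, TAK-931-1 and TAK-931-2, after the numbers in their labels. All carry the same implanted line, a model in which tumor cells and the host's own cells are sequenced together. The study names Vehicle-1 and TAK-931-1 as the allografts it used as representatives, beside a plot of tumor volumes per mouse. The labels do not say whether each of the 4 libraries is a separate animal, so the spread between libraries may be in part technical.

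Heat shock proteins are chaperones, which bind unfolded or partly folded proteins and help them reach or keep their shape. Hspa8 and the HSP90 proteins are made at high levels in unstressed cells, whereas Hspa1a and Hspa1b are the classical stress-inducible HSP70 genes. Heat shock factor 1 (Hsf1) drives the stress response by binding heat shock elements, alternating repeats of a short motif in the promoters of chaperone genes. Plasma cells secrete large amounts of antibody and are known for a high load on protein folding.

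The promoters were searched for this element. The genes were listed as targets of Hsf1, so matches among them are in part given by that choice and are a description only. RefSeq windows of 250 bases before to 50 bases after the transcription start (GRCm38.p6) were at hand for 7 of the 10 genes and not for Hspa8, Hsp90aa1 or Hsp90ab1. The motif searched was GAANNTTCNNGAA or TTCNNGAANNTTC, that is 3 alternating units of GAA and TTC with 2 bases between them, where the second form is the same element read from the other strand. It was found in 3 of the 7 genes, Hspd1, Hspe1 and Hsph1, and in 0.662% of 27025 mouse genes with a window. Counted by window, it was in 4 of the 10 windows of these genes and in 0.603% of all 32851 windows. The Hspe1 window and the matching Hspd1 window hold the same element, and so do both Hsph1 windows. The counts by gene and by window thus exceed the number of separate elements. With 2 units (GAANNTTC or TTCNNGAA), 6 of the 7 genes held a match and Dnajb1 held none, beside 17% of all genes (7 of 10 windows, beside 15.1% of all windows). For each of the 6 genes 1 stretch with a match is printed 5′ to 3′ on the strand of the gene, with the matching units in capitals.
Hspd1, chr1:55088033-55088092, minus strand: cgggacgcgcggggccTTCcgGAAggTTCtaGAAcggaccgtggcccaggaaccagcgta
Hspe1, chr1:55088043-55088102, plus strand: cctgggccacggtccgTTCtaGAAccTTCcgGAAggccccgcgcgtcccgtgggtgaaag
Hsph1, chr5:149636281-149636306, minus strand: tgcagaTTCtgGAAagTTCtcctcag
Hspa1a, chr17:34972217-34972276, minus strand: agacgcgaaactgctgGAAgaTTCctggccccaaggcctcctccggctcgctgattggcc
Hspa1b, chr17:34959299-34959358, minus strand: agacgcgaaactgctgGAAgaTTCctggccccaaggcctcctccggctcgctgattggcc
Hspb1, chr5:135887789-135887848, plus strand: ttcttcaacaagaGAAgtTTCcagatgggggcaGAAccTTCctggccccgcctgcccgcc

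Hspd1 and Hspe1 lie head to head on chromosome 1 and share 1 element, which the sequences above show from both strands. Read on the strand of each gene, the element began 144 bases upstream of the Hspd1 start at position 55087932 and 89 bases upstream of the Hspe1 start. These 2 bases are its opposite ends. The 3-unit match of Hsph1 lay past the start, beginning 16 bases after the start at position 149636315, and a further 2-unit match that is not printed lay 54 bases upstream of that start. The Hspa1a and Hspa1b stretches were identical over all 60 bases printed, and their whole windows were identical at 296 of 300 bases. A match is a run of letters and not a measured binding site.

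**Figure D1:**
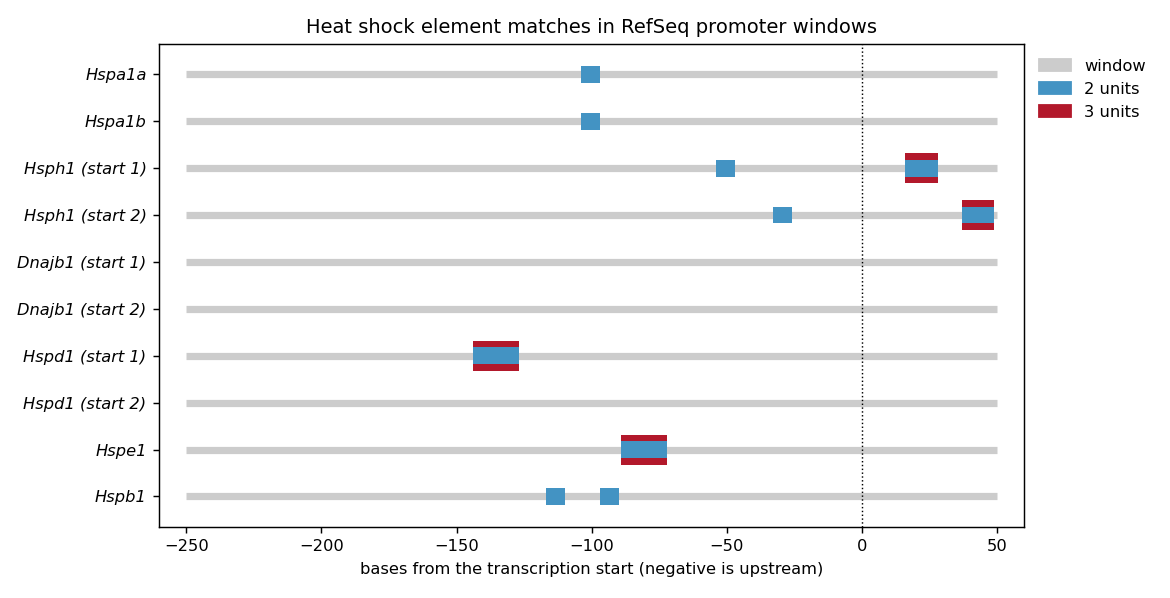
Matches to the heat shock element in the RefSeq promoter windows of 7 heat shock genes, with 1 line for each annotated start. The x axis gives bases from the transcription start, grey bars are the windows, blue blocks are matches of 2 units and red blocks are matches of 3 units. The 3-unit matches lie upstream in Hspd1 and Hspe1 and past the start in Hsph1, and both Dnajb1 windows are empty.

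The libraries held 16487902 to 19589339 counts on genes, and 15216 to 16270 genes had a count above 0. Levels are given as CPM, counts scaled to the same library total and adjusted for library composition by the TMM method, and a count of 3 corresponds to 0.158 to 0.180 CPM. The Vehicle libraries resembled each other (Pearson's r of log2 CPM across genes 0.977), whereas TAK-931-1 and TAK-931-2 differed more (r = 0.865). TAK-931-2 was closer to the Vehicle libraries (r = 0.950 and 0.939) than to TAK-931-1, whose r with Vehicle was 0.806 and 0.791. TAK-931-1 stood apart in its cell type markers. A list of 8 plasma cell markers summed to 9041 and 9592 CPM in Vehicle, 4660 CPM for TAK-931-1 and 13062 CPM for TAK-931-2, of which Jchain gave 5080, 5658, 3136 and 8124 CPM. In TAK-931-1 7 of the 8 were lowest, all but Slamf7, and in TAK-931-2 6 were highest, all but Sdc1 and Xbp1, which lay below Vehicle. The fibroblast list summed to 1929, 2200, 15278 and 5266 CPM in the same order, the monocyte and macrophage list to 641, 536, 9373 and 1677 CPM, and the leukocyte and T cell list to 68.8, 39.5, 1967 and 213 CPM. In bulk RNA, fewer cells of a type and less RNA per cell cannot be told apart, and the part of these shifts in the results below was not tested.

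The comparison of TAK-931 with Vehicle asked whether chaperone genes differ in tumors treated with an agent that causes replication stress. None of the 10 heat shock genes passed an adjusted p of 0.05 in edgeR's quasi-likelihood test with Benjamini-Hochberg adjustment over 13669 genes, beside 0.0% of all genes tested. At an unadjusted p under 0.05 the count was also 0 of 10, beside 18.1% of all genes. DESeq2 called 1 of the 10 genes, beside 10.4% of all genes, and limma-voom called 0. By level alone, 6 genes lay lower in both TAK-931 libraries than in both Vehicle libraries, where 32.7% of all genes did so, and these were the abundant genes Hspa8, Hsp90aa1, Hsp90ab1, Hsph1, Hspd1 and Hspe1. Hspa1b was the 1 gene higher in both, where 30.0% of all genes were so. Hspa1a, Dnajb1 and Hspb1 overlapped between the groups. The median log2 fold change was -0.51 over the 10 genes and 0.02 over all genes tested. All 10 genes passed the filter on low counts, Hspa1a through Vehicle-1 and TAK-931-1 alone.

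**Figure D2:**
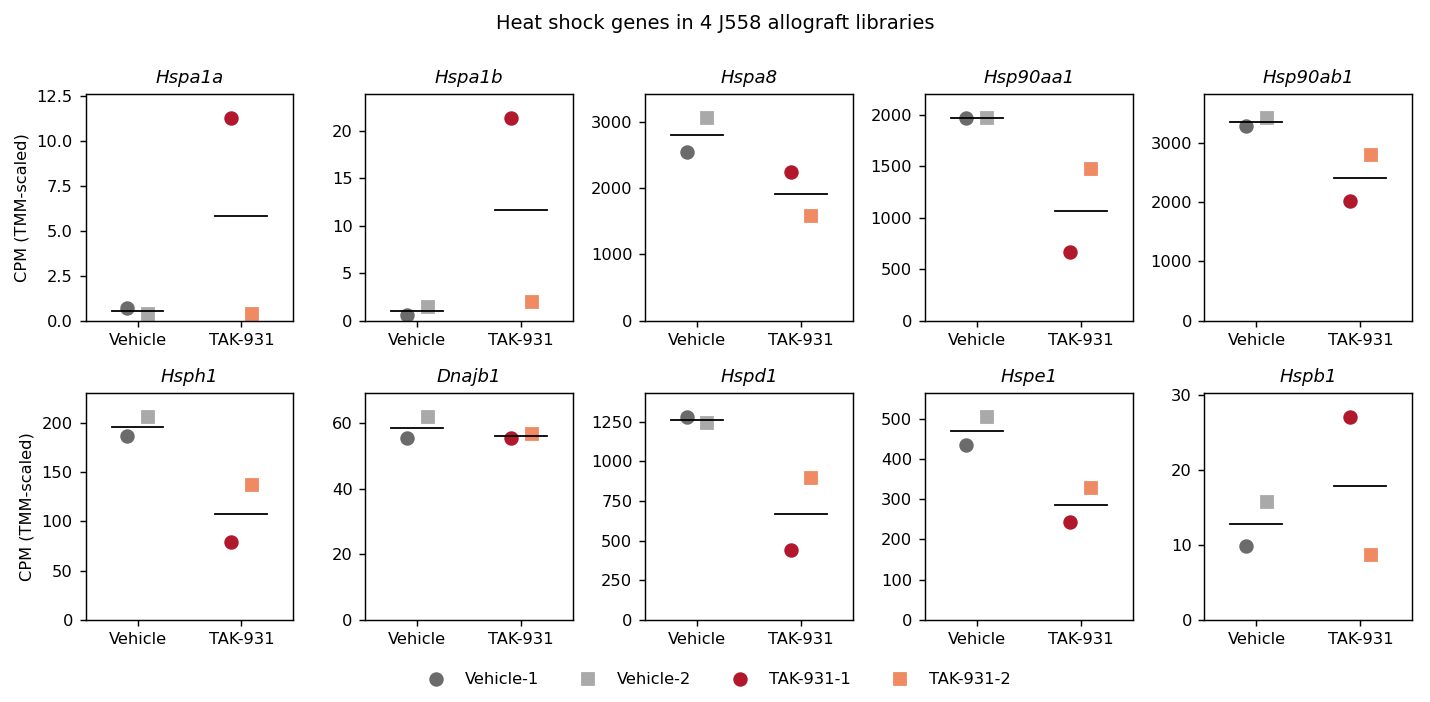
Level of each heat shock gene in the 4 libraries, in CPM on linear axes that start at 0, with points for single libraries and a black line for the mean of each group. Hspa8, Hsp90aa1, Hsp90ab1, Hsph1, Hspd1 and Hspe1 lie lower in both TAK-931 libraries, while Hspa1a, Hspa1b and Hspb1 have their highest value in TAK-931-1.

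The inducible HSP70 genes were almost silent in Vehicle tumors. Hspa1a had 0.712 CPM for Vehicle-1, 0.360 CPM for Vehicle-2, 11.3 CPM for TAK-931-1 and 0.350 CPM for TAK-931-2, from 12, 6, 214 and 6 counts. Hspa1b had 0.593, 1.44, 21.3 and 1.98 CPM in the same order, from 10, 24, 405 and 34 counts. Both genes were thus high in TAK-931-1 only, at 21.0 times the Vehicle mean for either gene, while in TAK-931-2 Hspa1a lay below both Vehicle libraries and Hspa1b lay at 1.95 times their mean. The fitted log2 fold change was 3.42 ± 1.71 (SE) for Hspa1a (edgeR adjusted p = 0.324) and 3.51 ± 1.35 (SE) for Hspa1b (edgeR adjusted p = 0.278). With DESeq2 in place of edgeR, Hspa1b passed the threshold (log2 fold change 3.58, adjusted p = 0.0229), as did 9.27% of all genes in that direction and 10.4% in either. The log2 fold change was 2.84 for Hspa1b and 2.02 for Hspa1a with limma-voom, and 2.78 and 2.20 with the replicate number as a block in edgeR, none of them called.

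Hspa1a (mm10 chr17:34969359-34972156) and Hspa1b (chr17:34956429-34959238) are neighbouring genes of 1 exon each on the minus strand. Of all 100-base stretches of the Hspa1a transcript in the GENCODE vM21 annotation, 56.5% also occur in transcripts of other genes, as do 49.9% of those of Hspa1b, all of the latter in Hspa1a. The column names of the tables mark the counts as uniquely placed reads, so the split between both genes is uncertain and their levels can be understated. Summed to 1 feature, they had a log2 fold change of 3.49 ± 1.36 (SE; edgeR adjusted p = 0.278).

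Hspa8, the constitutive HSP70 that also strips clathrin coats from vesicles, was among the most abundant of these genes. It had 2546 CPM for Vehicle-1, 3054 CPM for Vehicle-2, 2247 CPM for TAK-931-1 and 1583 CPM for TAK-931-2. Both TAK-931 libraries lay below both Vehicle libraries, and here TAK-931-2 was the lower one, unlike in the other 5 genes with that order. The fitted log2 fold change was -0.55 ± 0.29 (SE; edgeR adjusted p = 0.339). Counts per kilobase of Hspa1a and Hspa1b together were 0.0384% and 0.0441% of those of Hspa8 in the Vehicle libraries, 1.09% for TAK-931-1 and 0.110% for TAK-931-2. This ratio within a library does not depend on library scaling, and it was higher in both TAK-931 libraries (exact permutation test, two-sided p = 0.33, the smallest that 2 against 2 libraries can give).

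Hsph1 encodes the HSP110 protein that releases nucleotide from HSP70, and Dnajb1 encodes a J-domain protein that delivers clients to HSP70. Hsph1 had 187 and 206 CPM in Vehicle, 78.7 CPM for TAK-931-1 and 137 CPM for TAK-931-2. The groups did not overlap, and the fitted log2 fold change was -0.87 ± 0.34 (SE; edgeR adjusted p = 0.280). Dnajb1 had 55.5 and 61.9 CPM in Vehicle, 55.6 CPM for TAK-931-1 and 56.6 CPM for TAK-931-2. Its level was nearly the same in all 4 libraries, with a log2 fold change of -0.06 ± 0.20 (SE; edgeR adjusted p = 0.862). Dnajb1, which is itself a stress-inducible gene, thus did not share the high value of Hspa1a and Hspa1b in TAK-931-1.

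Both cytosolic HSP90 genes, whose proteins complete the folding of kinases and hormone receptors, lay lower in the TAK-931 libraries. Hsp90aa1, the inducible form, had 1968 and 1970 CPM in Vehicle, 666 CPM for TAK-931-1 and 1475 CPM for TAK-931-2. Hsp90ab1, the constitutive form, had 3281 and 3415 CPM in Vehicle, 2011 CPM for TAK-931-1 and 2796 CPM for TAK-931-2. TAK-931-1 was the lower library for both genes, at 0.338 times the Vehicle mean for Hsp90aa1 and 0.601 times for Hsp90ab1. The fitted log2 fold changes were -0.88 ± 0.45 (SE; edgeR adjusted p = 0.327) and -0.48 ± 0.27 (SE; edgeR adjusted p = 0.359). Per kilobase, the ratio of Hsp90aa1 to Hsp90ab1 was 0.528 and 0.507 in Vehicle, 0.292 for TAK-931-1 and 0.464 for TAK-931-2. The ratio was lower in both TAK-931 libraries, and the difference rested mostly on TAK-931-1 (exact permutation test, two-sided p = 0.33, the smallest possible). Of the 100-base stretches of the Hsp90aa1 transcript, 47.5% also occur in other genes' transcripts, most of them in the gene model Gm12346, and none of those of Hsp90ab1 do.

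Hspd1 (HSP60) and Hspe1 (HSP10) form the folding chamber and lid of the mitochondrial chaperonin and share the promoter shown above. Hspd1 had 1279 and 1243 CPM in Vehicle, 441 CPM for TAK-931-1 and 895 CPM for TAK-931-2. Hspe1 had 435 and 504 CPM in Vehicle, 244 CPM for TAK-931-1 and 328 CPM for TAK-931-2. The groups did not overlap for either gene, and TAK-931-1 was again the lower library. The fitted log2 fold change was -0.92 ± 0.41 (SE; edgeR adjusted p = 0.298) for Hspd1 and -0.71 ± 0.27 (SE; edgeR adjusted p = 0.276) for Hspe1. The per-kilobase ratio of Hspd1 to Hspe1 was 0.968 and 0.813 in Vehicle, 0.595 for TAK-931-1 and 0.899 for TAK-931-2. The groups overlapped in this ratio (exact permutation test, two-sided p = 0.667).

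Hspb1 (HSP25/27) encodes a small heat shock protein, which holds unfolded proteins without ATP and is abundant in muscle and epithelia. It had 9.84 CPM for Vehicle-1, 15.8 CPM for Vehicle-2, 27.0 CPM for TAK-931-1 and 8.64 CPM for TAK-931-2. TAK-931-1 was the highest and TAK-931-2 the lowest of the 4 libraries, and the fitted log2 fold change was 0.48 ± 0.67 (SE; edgeR adjusted p = 0.679). The other small heat shock genes that could be tested had the same order. Of 7 listed, 4 passed the low-count filter, and each of these was above both Vehicle libraries in TAK-931-1 and below both in TAK-931-2. Cryab (alpha B-crystallin) had 8.30 and 5.15 CPM in Vehicle, 71.3 CPM for TAK-931-1 and 1.98 CPM for TAK-931-2, and Hspb7 had 4.39, 2.64, 41.2 and 0.467 CPM. The fitted log2 fold changes ran from 0.65 ± 0.82 (SE) for Hspb6 to 2.57 ± 1.85 (SE) for Hspb7, with edgeR adjusted p-values from 0.399 to 0.646 and a median of 2.23 over the 4 genes. The 7 genes together summed to 24.7 and 17.98 CPM in Vehicle, 170 CPM for TAK-931-1 and 9.04 CPM for TAK-931-2.

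Skeletal muscle markers moved with these values. The 10 markers summed to 141 and 145 CPM in Vehicle, 1124 CPM for TAK-931-1 and 26.1 CPM for TAK-931-2. All 10 were highest in TAK-931-1 and lowest in TAK-931-2, where Myh1 and Myh2 were at 0. The endothelial list summed to 307, 337, 1013 and 310 CPM in the order used above. The 7 adipocyte markers summed to 45.7, 69.2, 268 and 28.6 CPM, most of it from Fabp4 (40.3, 61.4, 255 and 25.7 CPM), and Cidec was lower in TAK-931-1 (3.58 CPM) than in Vehicle (4.51 and 5.81 CPM). Adipoq and Plin1 had 2.63 and 1.84 CPM for TAK-931-1 and were near the floor in the other libraries, so the sum mainly follows Fabp4. Lep, Plin4 and Retn were at 0 in TAK-931-2, and Lep was at 0 in both Vehicle libraries too. The keratinocyte list summed to 53.9, 85.1, 36.6 and 45.6 CPM. Most of that sum was Dsp, a desmosome gene that other epithelia and heart muscle also express (51.6, 46.99, 20.4 and 43.5 CPM), while Krt5, Krt14, Krt1, Lor and Trp63 were at 0 in TAK-931-2 and Krt5 had 0, 10.4, 8.64 and 0 CPM. The part of muscle or fat tissue in the values of Hspb1, Hspa1a and Hspa1b was not tested.

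**Figure D3:**
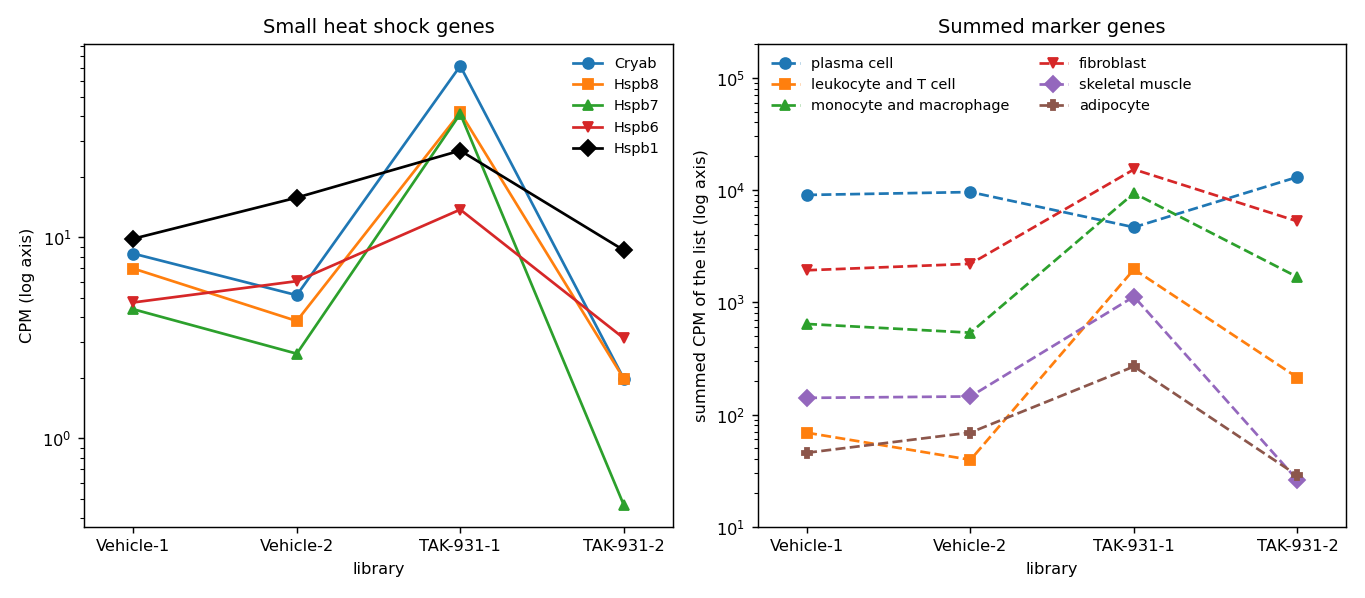
Left, CPM of Hspb1 and the 4 other small heat shock genes tested, on a log axis, by library. Right, summed CPM of 6 marker lists on a log axis, where lines join the values of 1 gene or list and carry no order in time. The small heat shock genes and the skeletal muscle list both peak in TAK-931-1 and are lowest in TAK-931-2, where the muscle list sums to 26.1 CPM.

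Levels of different genes were compared per length as TPM, counts per exon length scaled to the same total in each library. In the Vehicle libraries Hsp90ab1 (2324 and 2407 TPM) and Hspa8 (2149 and 2565 TPM) stood highest and could not be ordered between themselves, since their values overlapped. Hsp90aa1 (1226 and 1221 TPM), Hspe1 (1006 and 1159 TPM) and Hspd1 (974 and 942 TPM) followed without overlap, and then Hsph1 (95.3 and 105 TPM). Dnajb1 (30.5 and 33.9 TPM) and Hspb1 (19.4 and 30.9 TPM) overlapped, as did Hspa1a (0.452 and 0.227 TPM) and Hspa1b (0.375 and 0.905 TPM), which stood lowest. In TAK-931-1 Hspb1 stood at rank 6, in place of rank 8 in the other libraries, with 53.5 TPM, above Hsph1 (40.4 TPM) and Dnajb1 (30.8 TPM), and Hsp90aa1 (418 TPM) stood below Hspe1 (568 TPM). In TAK-931-2 the order was that of Vehicle-1 except that Hspa1b stood above Hspa1a. The order is limited by reads that cannot be placed uniquely, since 32.1% of the 100-base stretches of Hspa8, 26.9% of those of Hspd1 and 42.7% of those of Hspb1 also occur in other genes' transcripts, but 0.347% of those of Hspe1, and the same limit holds for the ratios to Hspa8 and to Hspe1. The 10 genes together took 0.968% of all counts for Vehicle-1, 1.04% for Vehicle-2, 0.562% for TAK-931-1 and 0.757% for TAK-931-2, with 95% Wilson intervals, which take each count as independent and are too narrow where both mates of a pair were counted, of 0.963% to 0.973%, 1.04% to 1.05%, 0.559% to 0.566% and 0.753% to 0.761%. Both TAK-931 libraries gave a smaller share than both Vehicle libraries (exact permutation test, two-sided p = 0.33, the smallest possible).

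The calls turned on the TAK-931 libraries. Without TAK-931-1, the 6 abundant genes passed the edgeR threshold as lower, beside 16.1% of all genes called lower in that fit, with log2 fold changes from -0.83 for Hspa8 to -0.26 for Hsp90ab1. Without TAK-931-2, 8 of the 10 genes passed, beside 28.2% of all genes called higher and 29.8% called lower. Hsp90aa1, Hsp90ab1, Hsph1, Hspd1 and Hspe1 were then lower and Hspa1a, Hspa1b and Hspb1 higher, while Hspa8 did not pass. Both fits share the Vehicle libraries, and in each the lone TAK-931 library is assumed to vary like the Vehicle pair. Without TAK-931-1 the log2 fold change turned to -0.61 for Hspa1a and to -0.57 for Hspb1, neither of them called, and that of Hspa1b was 0.96 (edgeR adjusted p = 0.454). Leaving out either Vehicle library gave 0 edgeR calls in all genes, with 1003 and 1019 genes at an unadjusted p under 0.05.

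**Figure D4:**
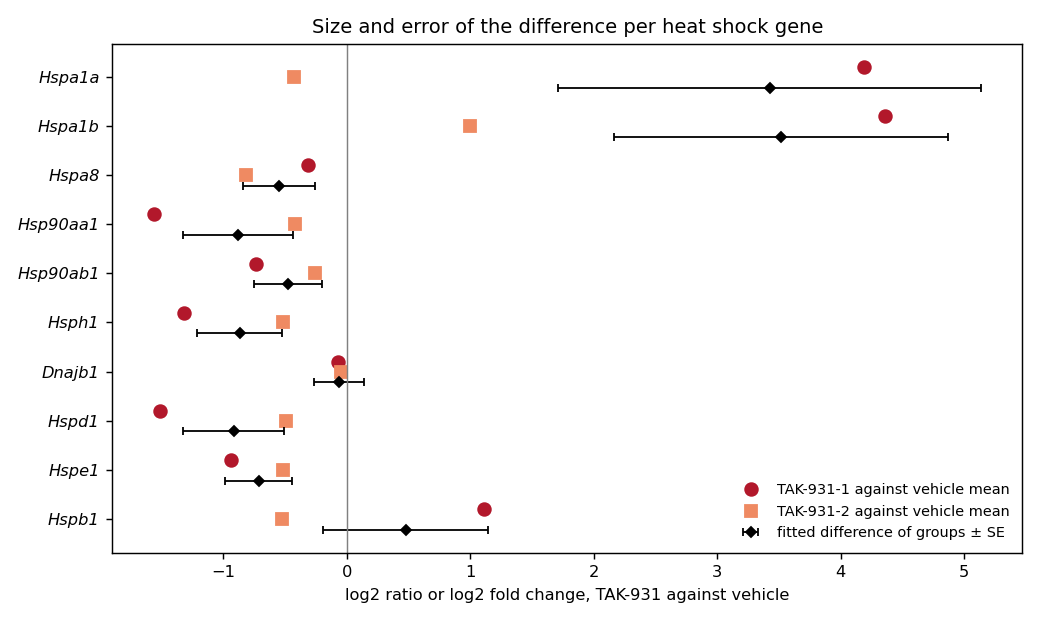
Log2 ratio of each TAK-931 library to the mean of the Vehicle libraries (log2 CPM with a prior count of 2; circles TAK-931-1, squares TAK-931-2) and the fitted log2 fold change with its SE (diamonds) for each heat shock gene. The 6 abundant genes have both libraries below 0, while Hspa1a and Hspb1 have TAK-931-1 above and TAK-931-2 below 0.

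The other genes of the chaperone network were taken from 9 lists of 89 genes, 85 of which passed the low-count filter. None passed the threshold in edgeR, DESeq2 or limma-voom, and at an unadjusted edgeR p under 0.05 14 were lower and 1 was higher, beside 6.55% and 11.6% of all genes. By level, 50 of the 85 were lower in both TAK-931 libraries than in both Vehicle libraries and 11 were higher, beside 32.7% and 30.0% of all genes. Their median log2 fold change was -0.47, beside 0.02 over all genes. Without TAK-931-1, edgeR called 39 of these genes lower and 5 higher, beside 16.1% and 12.6% of all genes, and without TAK-931-2 it called 54 lower and 15 higher, beside 29.8% and 28.2% of all genes.

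The cytosolic chaperonin TRiC, which folds actin and tubulin, and its partner prefoldin had the largest share of lower genes of the 9 lists, 12 of 14, with a median log2 fold change of -0.71, where 32.7% of all genes were lower and 30.0% higher in both TAK-931 libraries. Its extremes were Pfdn4 (-1.11 ± 0.27 SE) and Pfdn5 (0.33 ± 0.28 SE). Of the 14 HSP90 cochaperones 10 were lower in both libraries and 1 was higher (median -0.62), from Fkbp4, a prolyl isomerase of steroid receptor complexes (-1.20 ± 0.40 SE), to Sugt1 (0.20 ± 0.38 SE). The J-domain genes were divided, with 6 of 10 lower and 3 higher, the latter the same share as in all genes (median -0.40), from Dnajb2 (-1.25 ± 0.44 SE) to Dnajc5 (0.55 ± 0.23 SE). Of the 8 other HSP70 and HSP110 genes 5 were lower and 1 was higher (median -0.37), from Hspa4 (-0.79 ± 0.29 SE) to Hspa12b (1.18 ± 0.77 SE).

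Bag3, a stress-inducible nucleotide exchange factor that works with small heat shock proteins, went the other way. It had 13.2 and 11.9 CPM in Vehicle, 38.1 CPM for TAK-931-1 and 22.7 CPM for TAK-931-2. Both TAK-931 libraries lay above both Vehicle libraries, with a log2 fold change of 1.28 ± 0.37 (SE; unadjusted p = 0.0231, edgeR adjusted p = 0.275). It was the highest of 8 exchange factors and partners, of which 3 were lower and 2 higher in both TAK-931 libraries, near the 32.7% and 30.0% of all genes, whose lowest was Bag2 (-1.19 ± 0.47 SE) and whose median was -0.13. Hsf1, the main factor of the heat shock response, had 57.8 and 63.1 CPM in Vehicle, 44.9 CPM for TAK-931-1 and 62.3 CPM for TAK-931-2, with a log2 fold change of -0.17 ± 0.26 (SE), and Hsf2 had a log2 fold change of -0.17 ± 0.38 (SE). Hsbp1, an inhibitor of heat shock factors, had 58.3 and 57.7 CPM in Vehicle, 116 CPM for TAK-931-1 and 58.7 CPM for TAK-931-2 (named after its values were seen). Of the 5 genes tested in the list of heat shock factors and proteins that bind them, 0 were lower and 2 higher in both TAK-931 libraries, beside the same shares of all genes, and the extremes were Hsf4 (1.22 ± 0.70 SE, below 6 CPM in each library) and the HSF2-binding protein Hsf2bp (-0.47 ± 1.05 SE, below 1 CPM in each library).

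The closest paralogs in other compartments, Hspa9, Trap1, Hspa5 and Hsp90b1, were likewise lowest in TAK-931-1 and lower in TAK-931-2 than in Vehicle. Mitochondrial HSP70, Hspa9, had 1151 and 1001 CPM in Vehicle, 369 CPM for TAK-931-1 and 833 CPM for TAK-931-2 (log2 fold change -0.84 ± 0.46 SE). Mitochondrial HSP90, Trap1, had a log2 fold change of -0.53 ± 0.46 (SE). Of the 14 mitochondrial genes 9 were lower in both TAK-931 libraries and 1 was higher, beside 32.7% and 30.0% of all genes. Their median log2 fold change was -0.54, beside 0.02 over all genes, and they ran from Clpp (-0.93 ± 0.28 SE) to Spg7 (0.19 ± 0.22 SE). In the endoplasmic reticulum, Hspa5 had 2664 and 2707 CPM in Vehicle, 1309 CPM for TAK-931-1 and 2142 CPM for TAK-931-2 (log2 fold change -0.64 ± 0.33 SE), and Hsp90b1 had a log2 fold change of -0.57 ± 0.38 (SE). Of the 8 genes of that compartment 5 were lower and 1 higher in both TAK-931 libraries, beside the same shares of all genes (32.7% and 30.0%). The median was -0.36, with Dnajc3 the highest (0.58 ± 0.32 SE). In 3 of these 8 genes, among them Hyou1 (539 and 566 CPM in Vehicle, 626 CPM for TAK-931-2), TAK-931-2 lay above both Vehicle libraries. Over all genes tested, 5778 of 13669 did so.

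**Figure D5:**
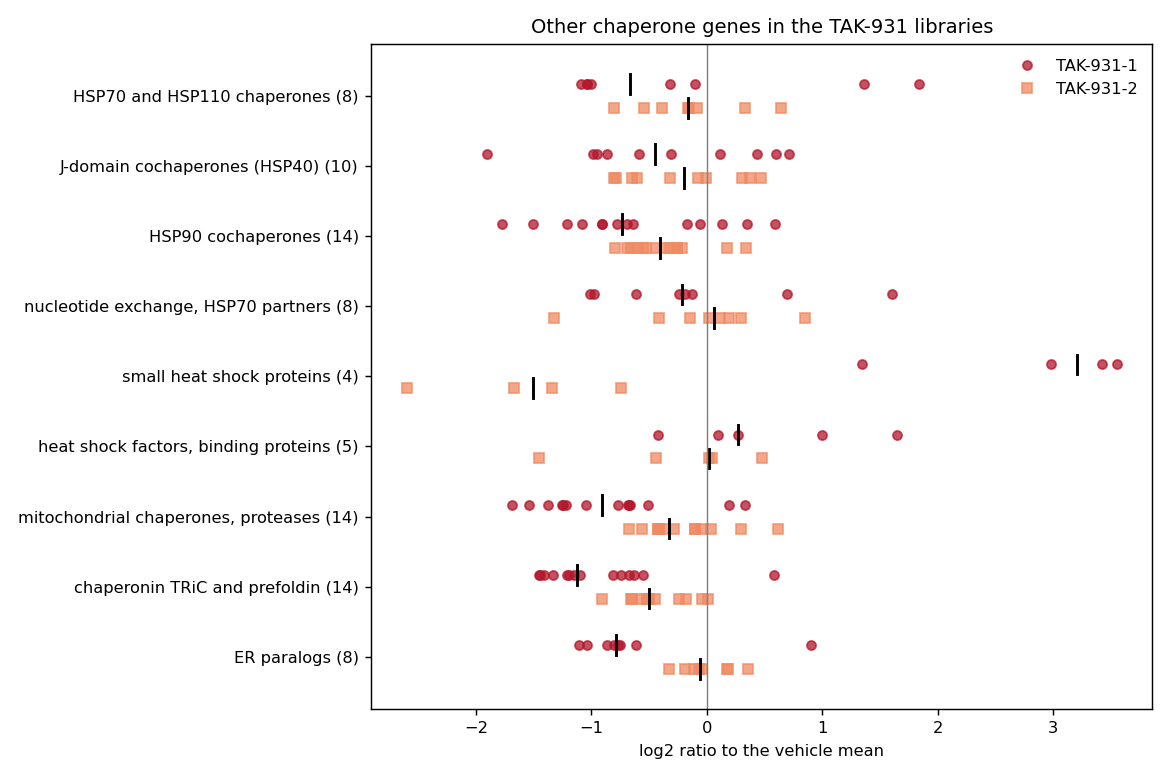
Log2 ratio of each TAK-931 library to the mean of the Vehicle libraries for 85 other chaperone genes in 9 lists, with the number tested in parentheses. Each point is 1 gene, circles are TAK-931-1, squares are TAK-931-2 and black bars are medians. In the TRiC and prefoldin list 12 of 14 genes are below both Vehicle libraries in both, while the small heat shock genes tested lie above 0 in TAK-931-1 and below 0 in TAK-931-2.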

How the data were processed

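The deposited files give raw counts per gene, which the authors made from RNA (RNeasy Mini) of whole tumors. The submitters' processing notes name STAR 2.6.1c, featureCounts and mm10; the annotation and the strand setting are not given in the sources used here. Of the counts from 1 to 20, 17.9% to 23.9% were odd, so both mates of a read pair appear to be counted. Genes with low counts were removed with filterByExpr (minimum count 10), and edgeR 4.0.16 (TMM, robust quasi-likelihood, two-sided, adjusted p threshold 0.05) was fitted on all 4 libraries without covariates. The SE of an edgeR log2 fold change was derived as its absolute value divided by the square root of the quasi-likelihood F statistic. DESeq2 1.42.0 and limma 3.58.1 were alternatives. The scripts were tested on simulated data. TPM used the deposited exon lengths. The study ran enrichment analyses on Vehicle-1 and TAK-931-1, and no test between groups of these 4 libraries was found in its methods. The 10 genes and the gene lists were chosen with earlier results of these data known. Of each list, the genes with the highest and the lowest log2 fold change were named, with Hsf1, Hsf2, Bag3, Hspa5, Hsp90b1, Hspa9 and Trap1. Cryab was named after its values were seen. Likeness of pattern is the root-mean-square difference of centred log2 CPM (prior count 2) over the 4 libraries.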

Additional observations from a re-analysis of the deposited data

How the results depend on the processing

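Among all genes, edgeR called 0 (2475 at an unadjusted p under 0.05) and DESeq2 called 1389, of which 89.4% were higher; limma-voom called 0 (1956 at an unadjusted p under 0.05). DESeq2 called 1 of the 10 heat shock genes, Hspa1b. With 1 library left out, edgeR called 0 to 8424 of all genes, 0 to 8 of the heat shock genes and 0 to 69 of the other chaperone genes, and the log2 fold change ran from -0.61 to 4.35 for Hspa1a and from -0.57 to 1.06 for Hspb1. The median over the 10 genes was -0.59 to -0.45 in these fits. With at least 10 counts in every library, Dnajb1 had a log2 fold change of 0.0076 and Hspa1a was not tested. With halved counts, Hspa1a was not tested either. Heat shock elements of 3 units were matched in 3 genes and of 2 units in 6. Median-of-ratios scaling, library size scaling, no filter, no robust estimation, halved counts and a threshold of 0.01 gave 0 calls in edgeR. Scaling moved the median of all genes by less than 0.1 (log2).

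The labels do not say that a replicate number marks a shared source. With the number as a replicate block, edgeR called 144 genes and 0 heat shock genes, and deviations of same-numbered libraries had r = 0.004 across genes.

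The spread was wider in TAK-931 (biological coefficient of variation 0.575) than in Vehicle (0.132), with 2 libraries a group. The counts of Hspa1a and Hspa1b in Vehicle (6 to 24) limit the precision of their fold changes.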

Other observations

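Over the 4 libraries, with log2 CPM centred on its mean, the genes nearest to the mean profile of Hspa8, Hsp90aa1, Hsp90ab1, Hsph1, Hspd1 and Hspe1 were Eif2b2, a subunit of the exchange factor for translation initiation (root-mean-square difference 0.0127), Cct5, a TRiC subunit (0.0152), Phykpl (0.0178), Gfm1, a mitochondrial translation elongation factor (0.0184), and Pmm1 (0.0189). Hspa8 itself departs from this mean, being lower in TAK-931-2 than in TAK-931-1. The 6 genes were put together after their values were seen, so this is a description of 4 libraries. The mean profile of all 10 genes was set largely by the high values of Hspa1a and Hspa1b in TAK-931-1, and the genes nearest to it were Tmem19 (0.0229), Phtf1 (0.0242), Ufc1 (0.0270), Prrg2 (0.0308) and Atl3 (0.0331).

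Hspb2 was listed at 0 counts in both Vehicle libraries and had 1.42 CPM for TAK-931-1 and 0.525 CPM for TAK-931-2. Hspb3 was at 0 in all 4 libraries. Cryaa, which also did not pass the low-count filter, went the other way from the small heat shock genes tested. It had 0.237 and 0.300 CPM in Vehicle, 0.211 CPM for TAK-931-1 and 0.934 CPM for TAK-931-2, from 4, 5, 4 and 16 counts.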
